A study of Homo sapiens with 1 sample.

Results

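The promoters and surroundings of 36 genes of glycolysis, gluconeogenesis and pyruvate control were examined in an ATAC-seq peak list from 786-O cells. 786-O is a long-established cell line from a human clear cell renal carcinoma, and the cells here carried an empty vector as the control for DPF3a overexpression, with no other treatment. ATAC-seq marks open DNA by inserting sequencing adapters into it with the Tn5 transposase. The list came from 1 library without a replicate, so the values describe this library, no comparison between conditions was made and no p-value is given. The 36 genes were chosen by name, from 20033 protein-coding genes annotated on the primary chromosomes of hg38, and all 36 symbols were found. They comprised 22 glycolytic enzyme genes from hexokinase to lactate dehydrogenase, 4 PFKFB genes, 5 genes of pyruvate dehydrogenase control and 5 gluconeogenic genes.

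Glycolysis splits glucose into pyruvate, which lactate dehydrogenase turns into lactate or pyruvate dehydrogenase passes to the mitochondrial citrate cycle. Gluconeogenesis runs the path backwards and, in the body, belongs mainly to liver and kidney cortex, where FBP1, PCK1, PCK2 and PC bypass the irreversible steps. Most steps of glycolysis have several isoenzymes with their own tissue pattern. Clear cell renal carcinomas usually lack functional VHL, as 786-O cells do. In general, the hypoxia-inducible factors (HIFs) that VHL would remove activate many glycolytic genes through a short hypoxia response element. Which HIF proteins these cells hold, and whether they act on these genes, was not examined here.

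For each peak the list gave a fold, the depth of reads at the summit relative to a genome-wide background. The summit pileup, the whole number of reads behind a fold, was recovered from it, and the interval after each fold is its exact 95% Poisson interval, which covers counting error only. The median fold of all peaks was 10.8, and no peak had a fold under 5.15. As a check of the label, the renal transcription factor genes PAX8 (fold 31.9) and PAX2 (22.7) had a summit at their promoter. So did the keratin genes KRT8 (43.3) and KRT18 (8.24) and the vimentin gene VIM (47.9), whereas CDH6 and CA9 had none. None of 7 marker genes of leukocytes, endothelium and hepatocytes had one. A promoter summit was present at 61.4% of all protein-coding genes, so those at the named genes say little about the label by themselves.

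A promoter was taken as 1 kb upstream to 100 bp downstream of any annotated transcription start site (TSS) of a gene. Of the 36 genes, 29 had a peak summit at a promoter (80.6%, exact 95% interval, 64.0 to 91.8), compared with 61.4% of all protein-coding genes. Counting the canonical transcript alone, 27 genes had one, against 52.2% of all genes. The canonical TSS lay inside a peak interval in 29 of 36, compared with 57.8% of all genes. At least 2 promoter summits were found at 14 genes (38.9%, exact interval 23.1 to 56.5), against 13.1% of all genes, and 11 of the 14 were glycolytic enzyme genes. The genes had a median of 10 distinct TSSs each and all protein-coding genes one of 5, and the part of this in the shares was not tested. By role, the counts were 17 of 22 glycolytic enzyme genes (77.3%), 3 of 4 PFKFB genes, 5 of 5 genes of pyruvate dehydrogenase control and 4 of 5 gluconeogenic genes. The exact interval of the glycolytic share (54.6 to 92.2) and that of the gluconeogenic share (28.4 to 99.5) overlapped over most of their length.

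The strongest promoter fold ran from 5.67 to 51.0 among single genes. Where a gene had several promoter summits, the strongest was used. The median of these folds was 26.8 over the 29 genes and 25.8 over the 12299 protein-coding genes with a promoter summit (interquartile range, 16.0 to 39.2). It was 22.7 for the glycolytic enzymes (range, 8.24 to 44.8), 42.8 for the PFKFB genes (38.1 to 51.0), 28.9 for pyruvate dehydrogenase control (26.8 to 40.7) and 15.5 for the gluconeogenic enzymes (5.67 to 45.3). Every PFKFB gene with a promoter summit and all 5 genes of pyruvate dehydrogenase control were above the all-gene median, in contrast to 8 of 17 glycolytic and 1 of 4 gluconeogenic genes. Medians over so few genes rest on 2 or 3 of them, and the gluconeogenic one became 32.7 when peaks with a score of 200 or less were left out.

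**Figure D1:**
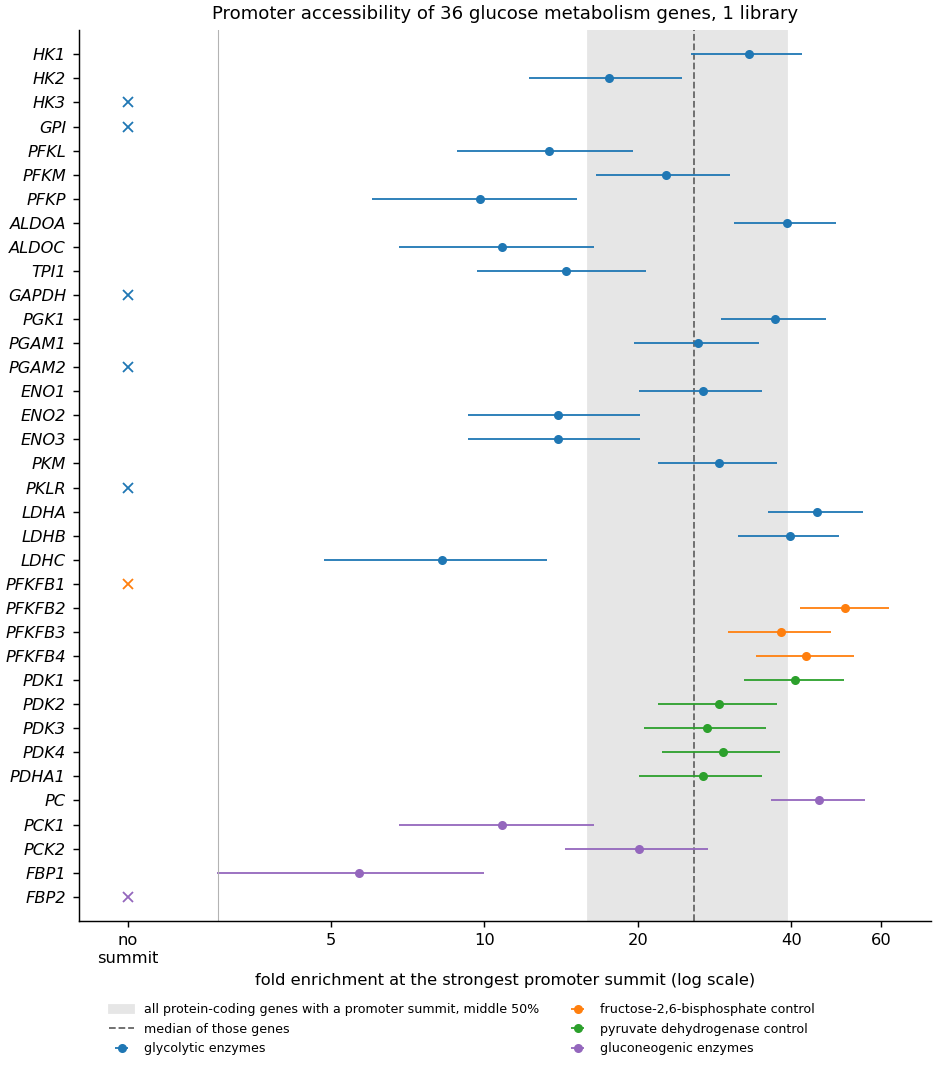
Fold enrichment at the strongest promoter summit of each of the 36 genes on a log axis, coloured by role, with exact 95% Poisson intervals as bars. Crosses mark genes without a promoter summit, and the band and dashed line give the middle 50% and the median of all protein-coding genes with a promoter summit. PFKFB2 (51.0), PC (45.3) and LDHA (44.8) lie above the band, FBP1 (5.67) and LDHC (8.24) far below it, and 7 genes have no summit.

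To see which sequences lay under these promoters, the 101 bp around each strongest summit were searched on both strands. The hypoxia core was searched as ACGTG or GCGTG. It was present at 10 of the 29 summits (34.5%, 17.9 to 54.3) and at 31.0% of the summits of all genes. The form ACGTG alone, a count made after the designed ones, was present at 8 of 29 (27.6%, 12.7 to 47.2) and at 10.3% of all summits. The 8 genes were PGK1, LDHA, HK2, PFKL, PC, PDK2, PDK3 and PDK4. The windows of 7 of them, PFKL, PC, PDK2 and PDK4 chosen after their values were seen, are shown here because the ACGTG share is where the summits of these genes and those of all genes lay furthest apart among the hypoxia and E-box words. They are in hg38, in the direction of the gene, with each ACGTG or GCGTG on either strand in capitals, and bases in annotated exons are left out. The PDK3 summit lay in an annotated exon and its window is not shown.

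PGK1, chrX:78103988-78104088, plus strand: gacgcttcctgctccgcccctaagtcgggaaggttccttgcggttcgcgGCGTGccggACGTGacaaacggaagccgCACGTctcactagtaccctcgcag
LDHA, chr11:18394315-18394415, plus strand: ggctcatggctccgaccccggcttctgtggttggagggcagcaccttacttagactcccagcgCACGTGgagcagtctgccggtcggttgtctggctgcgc
HK2, chr2:74834049-74834126, plus strand: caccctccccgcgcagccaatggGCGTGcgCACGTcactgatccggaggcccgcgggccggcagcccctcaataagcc
PFKL, chr21:44299726-44299826, plus strand: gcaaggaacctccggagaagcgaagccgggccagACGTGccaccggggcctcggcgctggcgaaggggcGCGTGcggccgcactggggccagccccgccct
PC, chr11:66958460-66958560, minus strand: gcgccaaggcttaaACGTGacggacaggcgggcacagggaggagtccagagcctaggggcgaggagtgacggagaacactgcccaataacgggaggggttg
PDK2, chr17:50095194-50095284, plus strand: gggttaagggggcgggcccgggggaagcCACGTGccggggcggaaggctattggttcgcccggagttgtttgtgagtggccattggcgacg
PDK4, chr7:95596784-95596837, minus strand: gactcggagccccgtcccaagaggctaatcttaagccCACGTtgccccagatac

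The PGK1 window held 3 cores, and HK2 and PFKL held 2 each. In LDHA and PDK2 the core was part of CACGTG, the E-box that MYC binds, which contains ACGTG on both strands. These were the 2 E-boxes among the 29 summits (6.90%, 0.846 to 22.8), compared with 3.59% of all summits. Leaving out windows with an E-box, the hypoxia core in either form was at 8 of 29 summits (27.6%) and at 27.4% of all. With 100 bp to each side, ACGTG was at 14 of 29 summits (48.3%) and at 19.7% of all, and the core in either form at 65.5% and 51.9%. In the 300 bp from 250 bp upstream to 50 bp downstream of the canonical TSS it was in 16 of all 36 genes (44.4%) and in 23.3% of all protein-coding genes, and the core in either form in 75% and 56.5%. A match shows these letters and not that a factor was bound.

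The promoter summits of ALDOA, PDK1 and PFKFB4, well-known HIF-responsive genes, held neither form of the core within 50 bp and are shown for contrast, under the same conventions.

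ALDOA, chr16:30065371-30065471, plus strand: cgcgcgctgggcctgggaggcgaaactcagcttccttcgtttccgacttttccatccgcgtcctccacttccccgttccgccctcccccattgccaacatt
PDK1, chr2:172555929-172556006, plus strand: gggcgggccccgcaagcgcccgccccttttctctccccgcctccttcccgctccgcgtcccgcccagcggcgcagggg
PFKFB4, chr3:48557042-48557142, minus strand: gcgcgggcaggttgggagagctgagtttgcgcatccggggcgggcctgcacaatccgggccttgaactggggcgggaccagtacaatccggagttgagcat

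All 3 windows held GGGCGG on one strand or the other, the GC box of the SP and KLF factors. This word was at 17 of the 29 summits (58.6%, 38.9 to 76.5) and at 37.0% of all summits. The 300 bp promoters of the 29 genes had a median GC content of 70.7%, and those of all genes with a promoter summit one of 66%. The part of base composition in the motif shares was not tested. The CCAAT box (CCAAT) was at 6 of 29 (20.7%) and at 18.7% of all, and AP-1 sites (TGACTCA or TGAGTCA) were at ENO2 and PKM, 2 of 29, compared with 3.03% of all. The NRF1 site was found at PGAM1 alone (3.45%, against 0.659% of all), and the cyclic AMP response element TGACGTCA, the TATA box TATAAA and the CTCF site were at none of the 29, an exact interval of up to 11.9%, with shares of 1.09%, 1.38% and 0.919% in all genes.

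**Figure D2:**
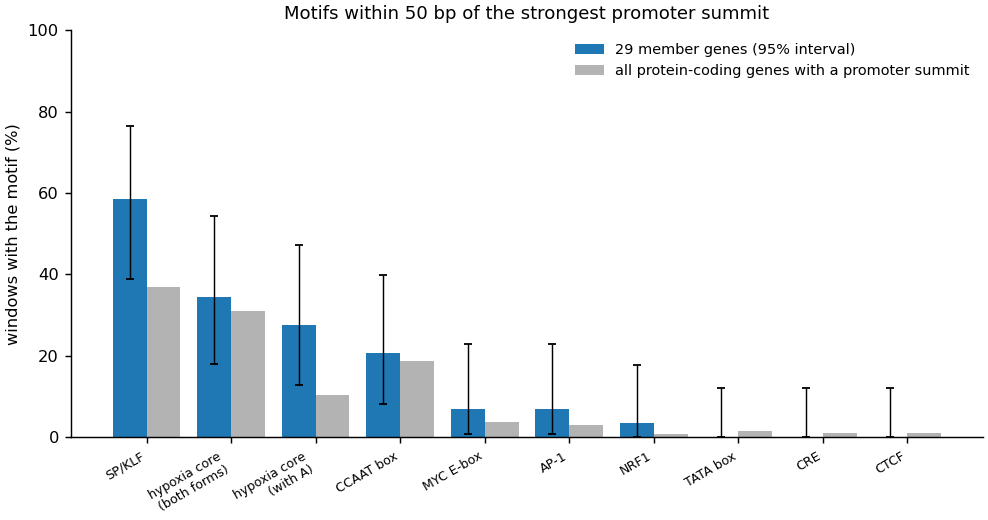
Share of 101 bp promoter summit windows that hold each motif, in percent, for the 29 member genes (blue, exact 95% interval as bars) and for all 12299 protein-coding genes with a promoter summit (grey). The 2 forms of the hypoxia core together were at 34.5% and 31.0%, the form with A at 27.6% and 10.3%, and the SP/KLF word at 58.6% and 37.0%.

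The steps were then followed in order, comparing isoenzymes of the same step. Hexokinases trap glucose as glucose 6-phosphate. HK1 had 4 promoter summits. The one at its canonical TSS, 4 bp downstream, had a fold of 24.2 (17.9 to 32.1), and the strongest, at the start of a short transcript 42029 bp further into the gene, had one of 33.0 (25.5 to 42.0). HK2, the inducible hexokinase of many tumours, had a single promoter summit 28 bp upstream of its TSS and a fold of 17.5 (12.2 to 24.4), which also served the divergent transcript HK2-DT. The HK1 pileup exceeded that of HK2 by a ratio of 1.91 (exact 95% counting interval, 1.23 to 3.00), but at the canonical TSS alone it was 1.39 (0.872 to 2.25), so the order was within counting error there. With 1 kb to both sides of a TSS as the promoter, an intronic HK1 summit counted and the ratio was 3.79 (2.56 to 5.74). HK3, which is expressed mainly in blood cells, had no promoter summit, and its nearest one lay 2680 bp upstream with a fold of 8.76.

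Phosphofructokinase, the committing step, is a tetramer of liver (PFKL), muscle (PFKM) and platelet (PFKP) type subunits. PFKM had the strongest promoter summit, 3 bp upstream of its canonical TSS with a fold of 22.7 (16.6 to 30.4). The fold was 13.4 (8.85 to 19.5) at PFKL and 9.79 (6.01 to 15.2) at PFKP, where the canonical TSS itself had one of 6.18 (3.34 to 10.7). The ratio of pileups was 1.72 (1.03 to 2.94) for PFKM over PFKL and 2.39 (1.35 to 4.40) for PFKM over PFKP. The ratio of PFKL over PFKP was 1.39 (0.728 to 2.70), within counting error, but with the canonical transcripts alone it was 2.27 (1.08 to 5.12). The place of PFKP in this order depended on the window, since an intronic PFKP summit 4112 bp from the canonical TSS, with a fold of 34.0, counted as a promoter summit at 2.5 kb to both sides, and the ratio was then 0.662 (0.439 to 0.987). That of PFKL over PFKP was then 0.385 (0.232 to 0.619).

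Aldolase cleaves fructose 1,6-bisphosphate. The promoter summit of ALDOA, the ubiquitous form, had a fold of 39.2 (30.9 to 49.0) in a peak 2767 bp wide. That of ALDOC, the brain form, had one of 10.8 (6.81 to 16.4) in a peak 396 bp wide, and the ratio was 3.75 (2.27 to 6.49). TPI1, which interconverts the triose phosphates, had a fold of 14.4 (9.68 to 20.8) 5 bp downstream of its TSS. PGK1, which makes ATP in the later part of the pathway, had one of 37.1 (29.1 to 46.7) 210 bp upstream, higher than 90.6% of the promoter peaks on the X chromosome. Its gene record of 219 kb in the annotation reaches far upstream of this TSS, and another of its promoter summits, 193709 bp upstream, was that of ATP7A.

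Phosphoglycerate mutase has a ubiquitous form, PGAM1, and a muscle form, PGAM2. PGAM1 had a fold of 26.3 (19.6 to 34.5) in a peak of 3196 bp shared with the promoter of RRP12, whereas PGAM2 had no promoter summit and its nearest was 5536 bp upstream (fold 7.21). Among the enolases, the fold was 26.8 (20.1 to 35.1) at ENO1, the ubiquitous form, and 13.9 (9.27 to 20.1) at ENO2, the neuronal form. The value at ENO3, the muscle form, was the same as at ENO2, but its summit lay 2096 bp upstream of the canonical TSS, at the start of another transcript and at the promoter of the profilin gene PFN1, and the canonical ENO3 promoter had no summit. The ENO1 pileup exceeded that of either by a ratio of 1.96 (1.20 to 3.28). With a promoter reaching 2.5 kb each way, where an ENO1 summit with a fold of 42.3 counted, the ratios were 3 (1.92 to 4.83) over ENO2 and 3.12 (1.98 to 5.05) over ENO3. Pyruvate kinase PKM had 3 promoter summits with folds of 25.2 at its canonical TSS, 28.9 (21.9 to 37.4) 2540 bp into the gene and 24.2 at 8539 bp.

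Lactate dehydrogenase interconverts pyruvate and lactate. LDHA, the muscle type subunit and a known HIF target, had 3 promoter summits, of which the strongest lay 198 bp upstream of the canonical TSS with a fold of 44.8 (35.96 to 55.2). Another at 1537 bp into the gene had a fold of 42.3 (33.7 to 52.4), and the third one of 6.70 (3.71 to 11.3). LDHB, the heart type subunit, had a fold of 39.7 (31.4 to 49.5). LDHA and LDHB did not differ beyond counting error (1.13, 0.821 to 1.56). LDHC, the testis form, lies next to LDHA on chromosome 11 and had a fold of 8.24 (4.84 to 13.3) on a pileup of 15. The ratios were 5.73 (3.29 to 10.7) for LDHA over LDHC and 5.07 (2.89 to 9.49) for LDHB over LDHC. With a promoter reaching 2.5 kb each way they were 2.69 (from 1.77) and 2.38 (from 1.55), still above 1.

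The PFKFB enzymes make and break fructose 2,6-bisphosphate, the main activator of phosphofructokinase. PFKFB2 had a fold of 51.0 (41.5 to 62.1), the highest among summits inside the promoter window used here and higher than 96.2% of all peaks, at a summit shared with the promoter of YOD1. The fold was 42.8 (34.1 to 53.0) at PFKFB4 and 38.1 (30.0 to 47.8) at PFKFB3, both hypoxia-induced forms, and the 3 genes did not differ beyond counting error, the widest ratio being 1.34 (0.981 to 1.84). This order too depended on the window, since a promoter reaching 2.5 kb each way took in the intronic PFKFB3 summit described with the distal sites, and the ratio of PFKFB2 over PFKFB3 was then 0.583. PFKFB3 had 4 promoter summits over 78 kb. PFKFB1, the liver and muscle form, had none, and the summit nearest to one of its TSSs, 1525 bp upstream (fold 28.3), was at the promoter of APEX2. With 1 kb or 2.5 kb to both sides of a TSS, or by overlap of intervals, HK1 (64.9), PFKFB3 (87.1) or the peak over the GAPDH promoter (55.1) exceeded PFKFB2.

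Pyruvate dehydrogenase kinases switch off the entry of pyruvate into the citrate cycle. The strongest was PDK1, a HIF target, with a fold of 40.7 (32.3 to 50.7). The others were within a narrow range of 29.4 (22.3 to 38.0) at PDK4, 28.9 (21.9 to 37.4) at PDK2 and 27.3 (20.53 to 35.7) at PDK3, and PDHA1, which encodes the catalytic subunit they act on, had 26.8 (20.1 to 35.1). The ratio for PDK1 over PDK3 was 1.5 (1.04 to 2.17), and the intervals for PDK1 over PDK4 (1.39, 0.976 to 1.9999) and over PDK2 (1.42, 0.992 to 2.04) covered 1. Relative to promoter peaks of their own chromosomes, PDK2 (percentile 81.3) stood above PDK1 (77.3). Promoter peaks on chromosome 17 had a median fold of 16.0 and those on chromosome 2 one of 23.2. Whether DNA copy number contributed to such chromosome differences was not tested.

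Among the gluconeogenic genes, PC, whose enzyme carboxylates pyruvate to oxaloacetate, stood apart from the others with a fold of 45.3 (36.4 to 55.8), 127 bp upstream of its TSS. Mitochondrial PCK2 had a fold of 20.1 (14.4 to 27.4) and cytosolic PCK1, the form known for its control by fasting hormones, one of 10.8 (6.81 to 16.4), a ratio of 1.90 (1.08 to 3.45). FBP1, the fructose-1,6-bisphosphatase of liver and kidney whose loss is a known feature of clear cell renal carcinoma, had the weakest promoter summit of the 29, with a fold of 5.67 (2.99 to 9.99) on a pileup of 10. It lay 107 bp downstream of the canonical TSS, just past the promoter limit of 100 bp, and counted through the start of another transcript. FBP1, like ENO3, thus had no summit at its canonical promoter. Its canonical TSS lay inside this peak interval, however, whereas no peak interval covered the canonical TSS or promoter of ENO3. FBP2, the muscle form, had none, and the nearest was 9681 bp upstream (fold 8.24). Where the 2 directions share a step but not an enzyme, the forward genes PFKM, PFKL and PFKP had folds of 9.79 to 22.7 and the reverse gene FBP1 one of 5.67, whose interval overlapped those of PFKP and PFKL. In contrast, the forward gene PKM (28.9) had a lower fold than the reverse gene PC (45.3), with overlapping intervals, and a higher one than PCK1 (10.8) and PCK2 (20.1), of which PCK2 overlapped.

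**Figure D3:**
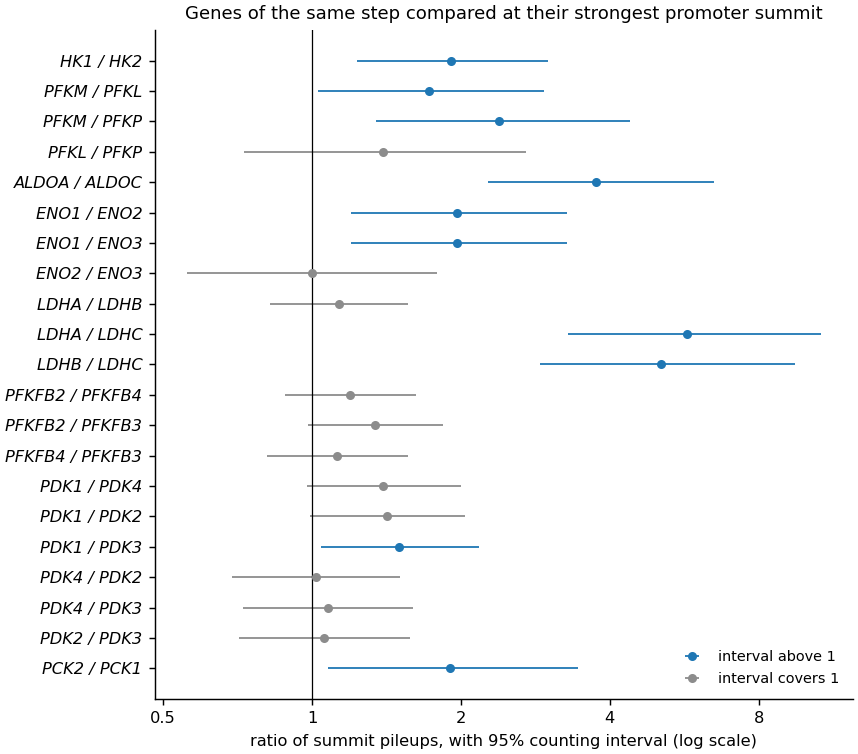
Ratio of the summit pileups of 2 genes of the same step at their strongest promoter summits, higher over lower, on a log axis with exact 95% counting intervals, where blue marks the pairs whose interval lies above 1. Of 21 pairs, 10 are blue, led by LDHA and LDHB over LDHC (5.73 and 5.07) and ALDOA over ALDOC (3.75). The share among pairs of other genes was not counted.

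In total, 21 pairs of isoenzymes both had a promoter summit, and the counting interval of the ratio lay above 1 in 10 of them. Several pairs shared a gene, and each ratio was taken as higher over lower. Pairs of other genes were not compared in this way, so the count is not shown to be particular to isoenzymes. Promoter folds of all protein-coding genes also spread widely (interquartile range, 16.0 to 39.2). When each fold was replaced by its percentile among the promoter peaks of its chromosome, 17 of the 20 pairs with unequal pileups kept their order, and so did all 10 with an interval above 1. ENO2 and ENO3 were tied at a pileup of 26. The intervals hold no error between libraries, which 1 library cannot give.

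Of the 7 genes without a promoter summit, all but GAPDH had no peak interval over any of their promoters. The 300 bp promoters of HK3, PGAM2, PFKFB1, FBP2 and PKLR were poor in CpG, with observed over expected CpG ratios of 0.224, 0.137, 0.0494, 0.226 and 0.231, and that of GPI had a ratio of 0.840, compared with a median of 0.857 over the 29 genes with a summit and 0.419 over all protein-coding genes without one. GAPDH was different. Its canonical TSS lay inside a peak 4604 bp wide, chr12:6531886-6536489, whose single reported summit was 1750 bp upstream of that TSS with a fold of 55.1 (45.2 to 66.6), higher than 97.1% of all peaks. Counted by overlap of the interval instead of the summit, GAPDH had a promoter peak, 30 of the 36 genes had one, and the share of all protein-coding genes was 65.7%.

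For GPI, the nearest summit lay 6989 bp downstream of its nearest annotated TSS, outside the gene and at the promoter of PDCD2L (fold 12.9), and for PKLR 7309 bp upstream of the TSS at that of FDPS (fold 55.1). The 2 kb around the canonical TSS of both GPI and PKLR aligned over at least 90% of its length, with at most 5% divergence, to an alternative sequence of hg38. The authors removed reads of low mapping quality, and the part of that filter in the result was not tested. Of 829 protein-coding genes with such a copy, 11 had a promoter summit (1.33%), compared with 12288 of 19204 genes without one (64.0%). No peak lay on the alternative copy of either gene. Over the 34 genes outside such sequence, 29 had a promoter summit (85.3%, 68.9 to 95.05).

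Accessible sites away from promoters were counted in the gene body, meaning inside the gene and outside every annotated promoter, and within 20 kb outside the gene. A gene-body summit was found in 20 of the 36 genes (55.6%, 38.1 to 72.1), compared with 49.7% of all protein-coding genes, at a median gene length of 30.1 kb against 27.5 kb. At least 1 summit within 20 kb, other than its own promoter summits, was found around 34 genes (94.4%, 81.3 to 99.3), compared with 74.0% of all. LDHB and PDK3 had none. The LDHB gene record of 122.5 kb reaches far upstream of its canonical TSS, however, so that a summit 9097 bp upstream of that TSS (fold 9.79) counted as gene body. Summed over the genes, such nearby summits numbered 129, and 52 of them lay at the promoter of another gene. A summit near several genes of the set, as at LDHA and LDHC, was counted once for each. All 36 genes had some summit in the promoter, the gene or the 20 kb around it, compared with 87.5% of all protein-coding genes.

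**Figure D4:**
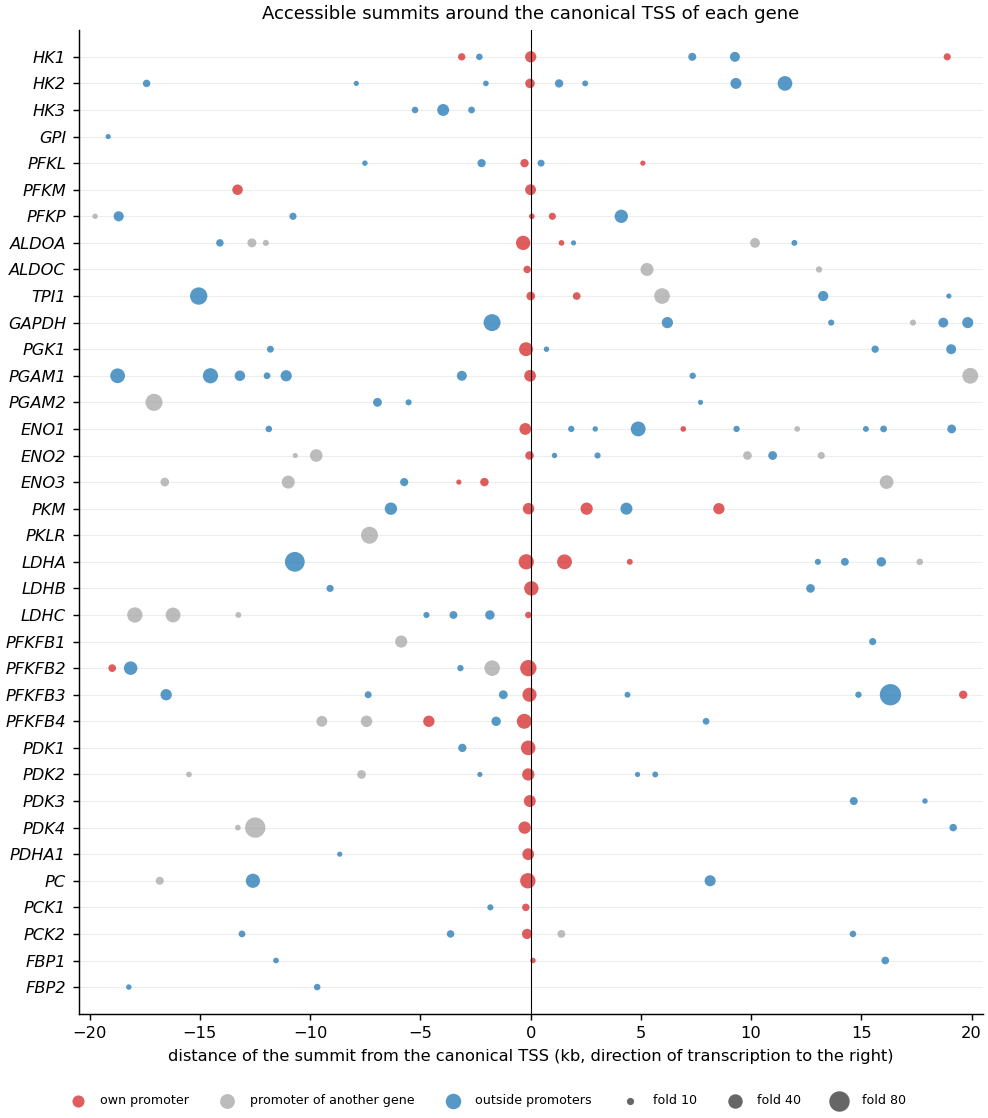
Summits within 20 kb of the canonical TSS of each gene, in kb with transcription running to the right, where dot area is proportional to fold, and colour separates own promoter summits (red), summits at promoters of other genes (grey) and summits outside promoters (blue). A summit near several of the genes is drawn once for each. Of 175 dots, 45 are at own promoters, and the heaviest blue dots are the intronic PFKFB3 summit 16321 bp downstream (fold 87.1) and the LDHA summit 10696 bp upstream (fold 74.7).

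Distal summits are here those outside the promoters of all annotated genes, which leaves out a summit 12491 bp upstream of PDK4 with a fold of 79.4 (67.4 to 92.9), at the promoter of PDK4-AS1. The genes named next were picked for their high distal folds, and at each the strongest distal summit exceeded the strongest promoter summit. At PFKFB2, PC, PDK1 and LDHB it did not, and the share over the gene set was not counted. PFKFB3 held 11 gene-body summits, and the highest, in an intron 16321 bp downstream of the canonical TSS, had a fold of 87.1 (74.5 to 101.2), higher than 99.7% of all peaks. Its pileup was 168, and that of the PFKFB3 promoter 73. A summit 10696 bp upstream of LDHA had a fold of 74.7 (63.1 to 87.9). PFKP, whose promoter was among the weakest, had an intronic summit 40124 bp from its canonical TSS with a fold of 69.0 (57.9 to 81.7) and 2 others of 36.1 and 34.0. In HK1 an intronic summit with a fold of 64.9 (54.1 to 77.3) lay 247 bp downstream of the start of a short transcript, just outside the promoter window. HK2 had intronic summits of 63.9 (53.2 to 76.1), 59.3 and 41.2, compared with 17.5 at its promoter.

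The strongest distal window of each of these 5 genes is shown, because they were the most accessible sites of the gene set outside every annotated promoter, and that upstream of GAPDH because its peak covers the GAPDH TSS. They were chosen after their values were seen. Capitals mark the hypoxia core in either form or an AP-1 site, on either strand.

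PFKFB3 intron, chr10:6219203-6219303, plus strand: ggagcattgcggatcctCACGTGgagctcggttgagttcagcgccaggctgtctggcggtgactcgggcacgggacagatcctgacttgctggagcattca
HK2 intron, chr2:74865455-74865555, plus strand: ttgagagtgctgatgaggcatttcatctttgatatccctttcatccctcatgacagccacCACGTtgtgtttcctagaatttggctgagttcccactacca
HK1 intron, chr10:69382914-69383014, plus strand: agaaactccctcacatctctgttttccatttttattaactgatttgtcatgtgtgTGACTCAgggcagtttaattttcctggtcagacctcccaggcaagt
LDHA upstream, chr11:18383817-18383917, plus strand: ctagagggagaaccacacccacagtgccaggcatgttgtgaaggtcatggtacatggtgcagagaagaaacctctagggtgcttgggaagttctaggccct
PFKP intron, chr10:3107622-3107722, plus strand: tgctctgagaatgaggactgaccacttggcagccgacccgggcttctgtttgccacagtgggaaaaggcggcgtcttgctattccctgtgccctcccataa
GAPDH upstream, chr12:6532732-6532817, plus strand: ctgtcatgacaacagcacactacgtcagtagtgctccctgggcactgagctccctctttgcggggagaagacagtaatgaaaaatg

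The PFKFB3 site held an E-box, the HK2 site an ACGTG on the minus strand and the HK1 site an AP-1 word, and the LDHA, PFKP and GAPDH sites held none of these. Over all 149 distal summits of the gene set, the shares were close to those of the 71445 distal summits of the library. AP-1 was at 26 (17.4%, 11.7 to 24.5) against 18.0%, the hypoxia core in either form at 19 (12.8%, 7.86 to 19.2) against 13.4%, and ACGTG at 8 (5.37%, 2.35 to 10.3) against 6.52%. The median fold of the distal summits was 10.8, compared with 9.28 in the library.

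Other genes of glucose use were counted from a separate list of 30 genes. A promoter summit was present at 23 (76.7%, 57.7 to 90.1), an interval that held the 61.4% of all protein-coding genes. The median fold was 32.5, compared with 25.8 over all protein-coding genes with a promoter summit. The groups below are small and were not tested against that share. All 7 transport genes had one, among them SLC2A1, the glucose transporter GLUT1 (48.4, 39.2 to 59.2), the lactate exporter gene SLC16A3 (26.3, 19.6 to 34.5) and the mitochondrial pyruvate carrier genes MPC1 (37.6) and MPC2 (36.1). Of 11 further isoenzyme genes, 5 had one, with the highest fold, 109.8 (95.5 to 125.5), at BPGM on chromosome 7, where promoter peaks had the highest chromosome median, 25.8. The others with one were ENO4 (36.1), HKDC1 (34.0), ADPGK (16.5) and LDHD (14.9). The 6 without were GAPDHS, PGK2, PGAM4, LDHAL6A, LDHAL6B and PDHA2, most of them known as testis forms. The 7 genes of the pyruvate dehydrogenase complex and its phosphatases had 6, and PDHB missed by little, with a summit 102 bp from its TSS and a fold of 24.2. Both genes of glucose release, G6PC3 (25.8) and SLC37A4 (25.2), and all 3 of the glucose phosphate branch had a promoter summit.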

How the data were processed

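One ATAC-seq library of 786-O cells with an empty vector was analysed. Per the labels and the study's methods, the authors used fastp for trimming and Bowtie2 2.3.4.3 for alignment to hg38, removed mitochondrial reads, duplicates and reads with a mapping quality under 30, and called peaks with MACS2 2.2.6 on this library alone, without a local background. Whether reads were moved to the Tn5 cut site is not given in the sources used here. The deposited fold is a ratio of summit pileup to a genome-wide background, beside −log10 p-values, −log10 q-values and a deposited score of 10 times the −log10 q-value. The list of 88676 peaks was filtered after numbering, and its lowest score was 52. The study's methods give a score minimum for ChIP-seq peaks, but no such rule for ATAC-seq is given in the sources used here.

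With a background pileup of 0.941, each fold equalled the pileup plus 1 over the background plus 1. The total read number is unknown. Pileups ran from 9 to 300, and 35.7% of peaks were under 15. Peaks on 24 chromosomes were set against GENCODE release 44. A summit assigned a peak. Isoenzymes were compared by the ratio of pileups with an exact conditional binomial interval, and shares carry Clopper-Pearson intervals. Alternative copies were found with minimap2 2.31-r1302. Python 3.11.15, numpy 2.4.6, pandas 2.3.3 and scipy 1.17.1 were used, and the functions were tested on simulated data. Every gene of the set is accounted for by its strongest promoter peak, or its nearest summit where it has none. The genes, lists and motifs were chosen with earlier results of these data known. A marker gene on the list is not reported here. Alternatives were score minimums, promoter windows, transcript choices, interval overlap, distances and motif windows.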

Additional observations from a re-analysis of the deposited data

How the results depend on the processing

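No paired analysis was possible because the list holds a single library. The share of genes with a promoter summit stayed within its interval under every alternative for the whole set, the glycolytic, the gluconeogenic and the pyruvate dehydrogenase control genes. For the 5 gluconeogenic genes that interval was 28.4 to 99.5, so wide that staying within it says little. FBP1 and PCK1 lost their summits at a score above 200. The share of the PFKFB genes became 100% with a promoter reaching 2.5 kb each way, where PFKFB1 and GAPDH gained a summit. With a score above 200, 24 genes kept a promoter summit (66.7%), compared with 52.0% of all protein-coding genes. The 5 genes that lost theirs were ALDOC, FBP1, LDHC, PCK1 and PFKP. At that score 5 isoenzyme ratios had an interval that excluded 1, the gluconeogenic median fold was 32.7 and 33.3% of genes had a gene-body summit. Fewer peaks remain by construction. Within 50 kb, 100% of genes had a summit outside the gene. Shares of all protein-coding genes were not computed for that distance, nor for the gene body at a score above 200. With 100 bp to each side of the summit, the hypoxia core in either form was in 65.5% of windows (51.9% in all genes), ACGTG in 48.3% (19.7%) and the SP/KLF word in 79.3% (58.0%), and in the 300 bp reference promoter the hypoxia core was in 75% (56.5%) and the CCAAT box in 50% (36.1%). Longer windows hold more matches by construction. The ratio of PFKM over PFKP reversed to 0.662 with the 2.5 kb promoter, since an intronic PFKP summit then counted. The counts without genes in sequence with an alternative copy, and of ACGTG alone, were added after the data were seen. Depth limits weak summits most, such as FBP1 on a pileup of 10.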
